A study of Homo sapiens with 6 samples.

Results

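H3K27ac regions that held a peak in 6T-CEM and in Jurkat replicate 2 but none in Jurkat replicate 1 are described here. They come from 1 H3K27ac library of 6T-CEM and 2 of Jurkat, established human lines of T-cell acute leukaemia. The 3 IgG samples of the series were not used here. GNE-987, a BET inhibitor, stands in the series title, and a dose of 10 nM over 24 h in its description. The labels of the samples name no treatment, and each library may be of treated or of untreated cells. No label states if the Jurkat replicates were grown as separate cultures. Peak names begin with Jur-NE in the Jurkat replicate 2 list and with Jur in the replicate 1 list, and what NE stands for is not given.

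Peaks of all 3 lists on chromosomes 1 to 22 and X that shared at least 1 base were joined into 49528 union regions. Of these, 7058 (14.3%) had a peak in 6T-CEM and in Jurkat replicate 2, no peak in Jurkat replicate 1, and no single peak of 4 kb or wider. They held 7384 of the 35154 6T-CEM peaks (21.0%) and 7649 of the 32097 Jurkat replicate 2 peaks (23.8%). The Jurkat replicate 1 list was the shortest, with 16159 peaks. With only the 16159 strongest peaks of each list by −log10 q (equal list length), 1803 regions met the same rule. The regions were chosen by the presence or absence and the width of peaks in these 3 lists, so their number and their peak values are a description and carry no test. Read numbers are not part of the lists, so depth is unknown, and 6T-CEM has a single library.

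Acetylation of lysine 27 on histone H3 is laid down mainly by the acetyltransferases p300 and CBP and marks active promoters and active enhancers. BET proteins bind acetylated histones through their bromodomains and help RNA polymerase leave the promoter. Promoters of broadly used genes are often rich in CpG dinucleotides, whereas enhancers lie within or between genes and differ more between cell types.

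The regions overlapped the hairpins of 30 of 1558 RefSeq microRNAs (1.93%) by at least 1 base. Mature sequences of some conserved ones are shown, with the seed (bases 2 to 8) in capitals, to identify the overlapped microRNAs. Whether the acetylation belongs to the microRNA genes was not tested. MIR195 and MIR497 lie under the same region at chr17:7016732-7018637 (hg38), and their main products share a seed.
hsa-miR-195-5p: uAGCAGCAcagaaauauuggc
hsa-miR-497-5p: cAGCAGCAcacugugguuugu
hsa-miR-26a-5p: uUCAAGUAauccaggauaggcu
hsa-miR-199b-3p: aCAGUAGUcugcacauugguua
hsa-miR-130b-3p: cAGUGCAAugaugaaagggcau

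The MIR195 and MIR497 region had a fold enrichment over the caller's background, as given by the authors, of 6.44 in 6T-CEM and 5.83 in Jurkat replicate 2. The nearest Jurkat replicate 1 peak was 1.43 kb away. The MIR26A1 region lay at chr3:37969276-37970118 with folds of 4.72 in 6T-CEM and 4.54 in Jurkat replicate 2. These libraries gave nearly equal folds at both loci. The MIR199B region lay at chr9:128244497-128246415 with 5.29 in 6T-CEM and 5.99 in Jurkat replicate 2, and 28.9 kb from a replicate 1 peak. In the MIR130B region, at chr22:21651596-21653404, the fold was 7.76 in 6T-CEM and 2.92 in Jurkat replicate 2. MIR130A, a relative of MIR130B on chromosome 11, showed the same order with 7.53 in 6T-CEM and 2.64 in Jurkat replicate 2. Regions with peaks in all libraries overlapped 88 hairpins, and regions of 6T-CEM and Jurkat replicate 1 only overlapped 10.

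Promoter sequences (250 bases before to 50 after an annotated start, RefSeq GRCh38.p14, gene strand) are shown for the 3 protein-coding promoters whose region had the highest weaker −log10 q of the 6T-CEM and Jurkat replicate 2 peaks. The weaker −log10 q is the lower of the 2 libraries' values. CpG dinucleotides are in capitals. RFC5, which encodes a subunit of the clamp loader of DNA replication, led the same order among regions of 6T-CEM and Jurkat replicate 1 only and is given for contrast.
ECE1 (chr1:21279566-21279865, minus strand): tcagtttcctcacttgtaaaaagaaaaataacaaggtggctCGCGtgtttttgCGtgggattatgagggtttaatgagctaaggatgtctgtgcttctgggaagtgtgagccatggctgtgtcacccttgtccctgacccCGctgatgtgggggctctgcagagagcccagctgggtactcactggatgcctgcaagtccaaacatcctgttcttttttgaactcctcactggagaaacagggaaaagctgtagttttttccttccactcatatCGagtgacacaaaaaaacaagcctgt
IFITM1 (chr11:313790-314089, plus strand): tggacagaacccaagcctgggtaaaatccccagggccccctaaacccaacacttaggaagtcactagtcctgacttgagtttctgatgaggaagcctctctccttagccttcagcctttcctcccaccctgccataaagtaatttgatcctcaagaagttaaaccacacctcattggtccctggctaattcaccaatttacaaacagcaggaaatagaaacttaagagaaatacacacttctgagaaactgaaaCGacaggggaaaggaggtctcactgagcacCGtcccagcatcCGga
TNFRSF14 (chr1:2556121-2556420, plus strand): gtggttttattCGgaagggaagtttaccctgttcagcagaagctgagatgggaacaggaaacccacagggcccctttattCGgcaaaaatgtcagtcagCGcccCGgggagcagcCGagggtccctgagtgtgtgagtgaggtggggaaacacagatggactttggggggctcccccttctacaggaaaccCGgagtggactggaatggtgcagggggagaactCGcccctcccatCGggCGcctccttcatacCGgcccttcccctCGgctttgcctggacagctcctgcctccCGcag
RFC5 (chr12:118016453-118016752, plus strand): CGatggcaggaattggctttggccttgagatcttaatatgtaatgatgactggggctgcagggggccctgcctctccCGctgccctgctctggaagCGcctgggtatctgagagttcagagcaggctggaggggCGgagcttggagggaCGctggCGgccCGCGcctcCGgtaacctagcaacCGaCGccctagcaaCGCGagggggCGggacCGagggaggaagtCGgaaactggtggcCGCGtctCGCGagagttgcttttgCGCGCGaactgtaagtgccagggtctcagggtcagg

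ECE1 encodes the endothelin-converting enzyme. Its promoter held 5 CpGs and its region had folds of 9.76 in 6T-CEM and 9.54 in Jurkat replicate 2. IFITM1, an interferon-induced membrane protein gene, held 3 CpGs, with folds of 7.70 in 6T-CEM and 8.78 in Jurkat replicate 2. TNFRSF14, which encodes a lymphocyte co-signalling receptor, held 12 CpGs, with folds of 9.44 in 6T-CEM and 8.15 in Jurkat replicate 2. No replicate 1 peak lay within 43.1 kb of the ECE1 region, whereas the nearest was 2.00 kb from that of IFITM1 and 7.14 kb from that of TNFRSF14. The RFC5 promoter held 23 CpGs, and its region had folds of 6.30 in 6T-CEM and 12.4 in Jurkat replicate 1. The next promoters of that class were not alike, with 4 CpGs at ARHGAP15 and 30 at C4orf33.

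Over whole classes, 345 of 22132 coding promoters (1.56%) were overlapped by regions of 6T-CEM and Jurkat replicate 2 only. Their median ratio of observed to expected CpG was 0.67, and it exceeded 0.6 in 53.0% of them. The ratio exceeded 0.6 in 87.7% of the 5558 promoters under regions of all libraries, in 92.0% of the 1053 under regions of 6T-CEM and Jurkat replicate 1 only, and in 62.2% of every promoter listed. Promoters under regions of 1 library alone lay on either side of the 345, with 69.2% for 6T-CEM only and 31.8% for Jurkat replicate 2 only. Median GC content was closer, at 64.0% in the 345 promoters, 65.7% under regions of all libraries and 65.3% under those of 6T-CEM and replicate 1 only. Motifs were searched on both strands. The ETS letters CCGGAA stood in 20% of the 345 promoters, against 35.6% under regions of all libraries, 37.0% under regions of 6T-CEM and replicate 1 only, and 21.2% of every promoter. The E-box letters CAGCTG stood in 23.2%, against 14.3%, 17.3% and 18.0% in the same order. GGGCGG, a letter run bound by SP and KLF factors, stood in 59.7%, against 71.0%, 73.8% and 56.3%. The RUNX letters TGTGGT stood in 12.8%, against 9.79%, 9.31% and 11.3%. The GATA letters AGATAA were held by 6.09%, against 3.98%, 5.41% and 7.88%. The AP-1 letters, TGANTCA, were held by 7.25%, against 3.99%, 2.94% and 6.15%. The TCF/LEF run CTTTGAT was found in 1.45%, against 1.24%, 1.61% and 1.99%. Promoters under regions of 1 library alone had E-box shares of 21.97% for 6T-CEM and 29.4% for Jurkat replicate 2, AP-1 shares of 4.35% and 10.4%, and RUNX shares of 9.87% and 12.4%, so the 345 promoters lay between these sets or close to one of them. No test was run on these shares, since promoters of 1 library are not replicates.

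The regions lay away from promoters. Of the 7058, 433 (6.13%, 95% Clopper-Pearson interval 5.59 to 6.72, which covers counting error only) lay within 1 kb of an annotated start site of a protein-coding gene. Another 5129 (72.7%) overlapped a gene body further from a start site, and 1496 (21.2%) lay between genes. Among the 8620 regions with peaks in all libraries, 46.1% lay near a start site and 39.4% in a gene body. The width limit was applied to the described regions only unless stated, so other classes include regions with a peak of 4 kb or wider. Of the 7918 regions of all libraries without such a peak, 3785 lay near a start site. Among the 1645 regions of 6T-CEM and Jurkat replicate 1 only, which is the same pattern with the Jurkat libraries exchanged, 53.9% lay near a start site (51.4 to 56.3). Regions found in 1 of the longer lists alone were nearer to the 7058, with 8.91% near a start site for 6T-CEM only and 3.56% for Jurkat replicate 2 only. With both annotated ends of a gene counted, 794 of the 7058 (11.2%, 10.5 to 12.0) lay within 1 kb of an end, against 51.3% of regions in all libraries and 58.2% of those in 6T-CEM and Jurkat replicate 1 only.

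At equal list length, the number of regions of 6T-CEM and Jurkat replicate 2 only (1803) was close to that of 6T-CEM and Jurkat replicate 1 only (1739, likewise without a peak of 4 kb or wider). Their positions still differed, with 7.38% near a start site for 6T-CEM and replicate 2 only and 50.4% for 6T-CEM and replicate 1 only. Of the deposited 7058 regions, 1800 (25.5%) overlapped one of the 1803.

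**Figure D1:**
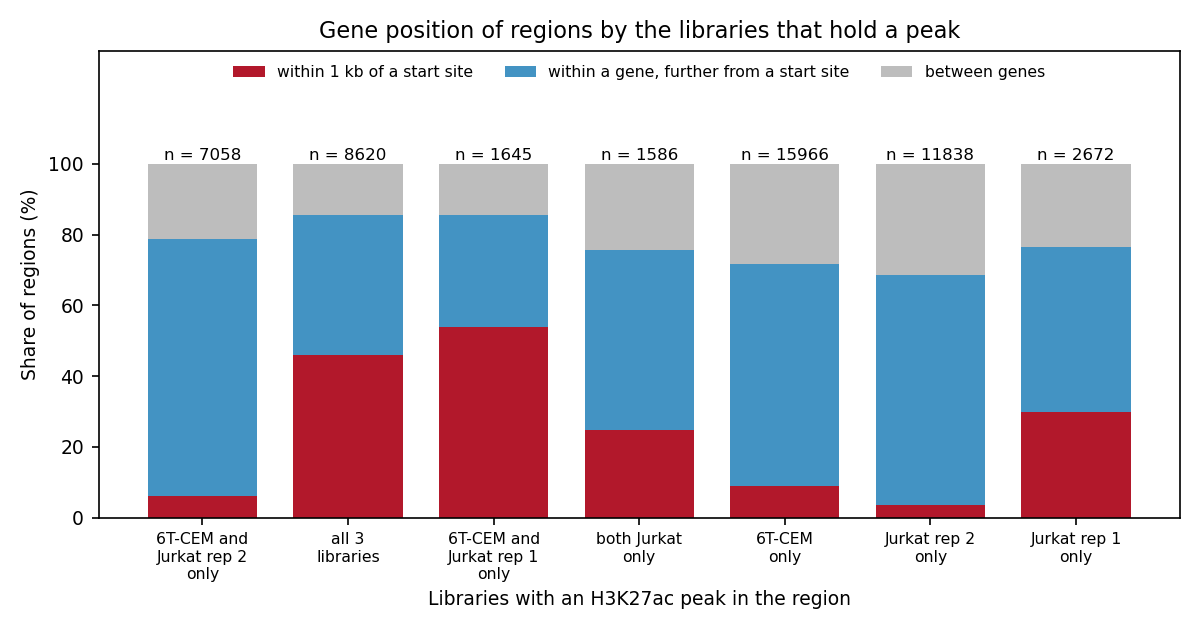
Shares of regions (vertical axis, percent) within 1 kb of a protein-coding start site, within a gene further away, and between genes, for the classes of regions named on the horizontal axis, with the number of regions above each bar. The share near a start site is 6.13% for 6T-CEM and Jurkat replicate 2 only, 46.1% for all 3 libraries and 53.9% for 6T-CEM and Jurkat replicate 1 only.

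Replicate 1 peaks were then read separately near and away from start sites, over regions without a peak of 4 kb or wider. Away from start sites, 4133 of 10758 regions with peaks in 6T-CEM and Jurkat replicate 2 also held a replicate 1 peak (38.4%, 37.5 to 39.3). Near start sites the share was 3785 of 4218 (89.7%, 88.8 to 90.6). Exchanging the Jurkat libraries gave no such split: of regions with peaks in 6T-CEM and Jurkat replicate 1, 84.5% away from start sites and 81.0% near them also held a replicate 2 peak. At equal list length the replicate 1 shares were 60.7% away from and 94.7% near start sites, and the replicate 2 shares 74.9% and 72.9%.

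The same shares were read by peak strength, as a description, since a region without a replicate 1 peak is by the rule one of the 7058. The 14976 regions common to 6T-CEM and Jurkat replicate 2 were ordered by their weaker −log10 q and divided into 10 bins of like size. In the weakest bin, with values of 2.00 to 3.46, a replicate 1 peak was present in 77.1% of regions near a start site and in 15.7% of those further away. In the strongest bin, from 17.0 to 77.9, the shares were 98.8% and 89.2%, so the distance between near and far regions was smaller there. Of the regions described here, 1100 fell in the weakest bin and 97 in the strongest.

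**Figure D2:**
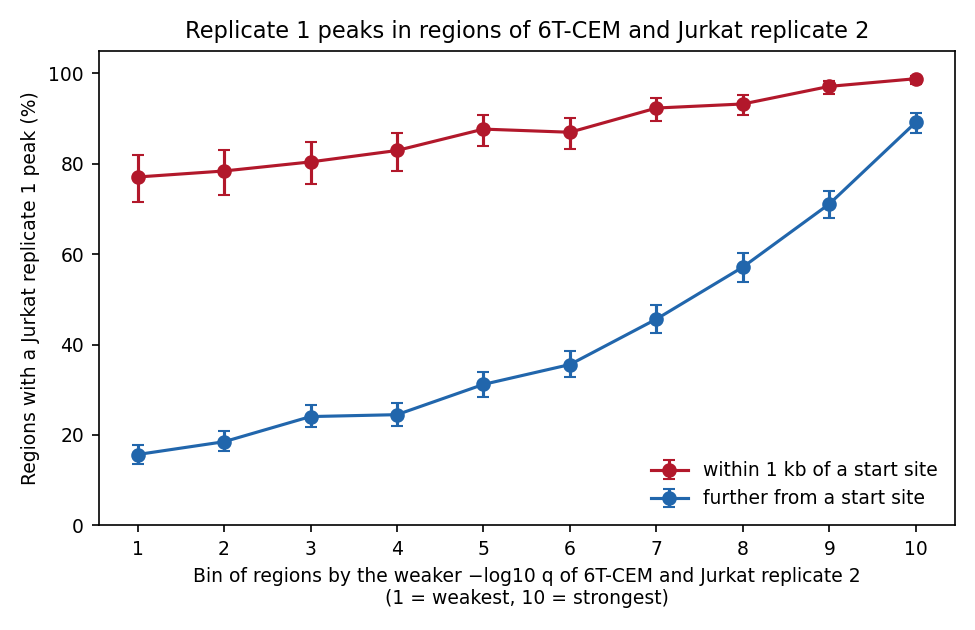
Share of regions common to 6T-CEM and Jurkat replicate 2 that also held a Jurkat replicate 1 peak (vertical axis, percent, with 95% Clopper-Pearson intervals), by bin of the weaker −log10 q (horizontal axis), for regions near and further from a start site. In the weakest of 10 bins the shares are 77.1% and 15.7%, and in the strongest 98.8% and 89.2%.

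Peak strength was modest but not confined to the calling threshold. The median fold of the 7058 regions was 4.46 in 6T-CEM (quartiles 3.52 and 5.73) and 4.28 in Jurkat replicate 2 (3.47 and 5.35). Regions of all libraries, to which no width limit was applied, had medians of 5.47 in 6T-CEM and 5.06 in Jurkat replicate 2. The median −log10 q was 8.30 in 6T-CEM and 6.86 in Jurkat replicate 2, compared with 14.8 and 12.8 in regions of all libraries. Of the 7058, 848 (12.0%) had a −log10 q of 10 or more in both libraries, and 9.14% had a value under 3 in at least 1 of them. The strongest peak of a region was higher in 6T-CEM in 61.1% of regions by −log10 q, close to the 58.2% of regions of all libraries. Across the 7058 regions the rank correlation of −log10 q between 6T-CEM and Jurkat replicate 2 was 0.20, and that of fold 0.27. It was 0.44 and 0.42 across regions of all libraries. Peaks of the same list share its depth and background, and the choice of regions limits the range of values.

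In 6281 regions (89.0%) each of 6T-CEM and Jurkat replicate 2 had exactly 1 peak. Their summits lay a median of 114 bp apart (quartiles 46 and 240.0), and 69.5% were within 200 bp. The same distance was 95 bp in regions of all libraries. Median peak width was 741 bp in 6T-CEM and 599 bp in Jurkat replicate 2, compared with 1173 bp and 996 bp in regions of all libraries. The rule kept peaks of 4 kb or wider out of the described regions but not out of those of all libraries, so these widths are not on equal terms.

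**Figure D3:**
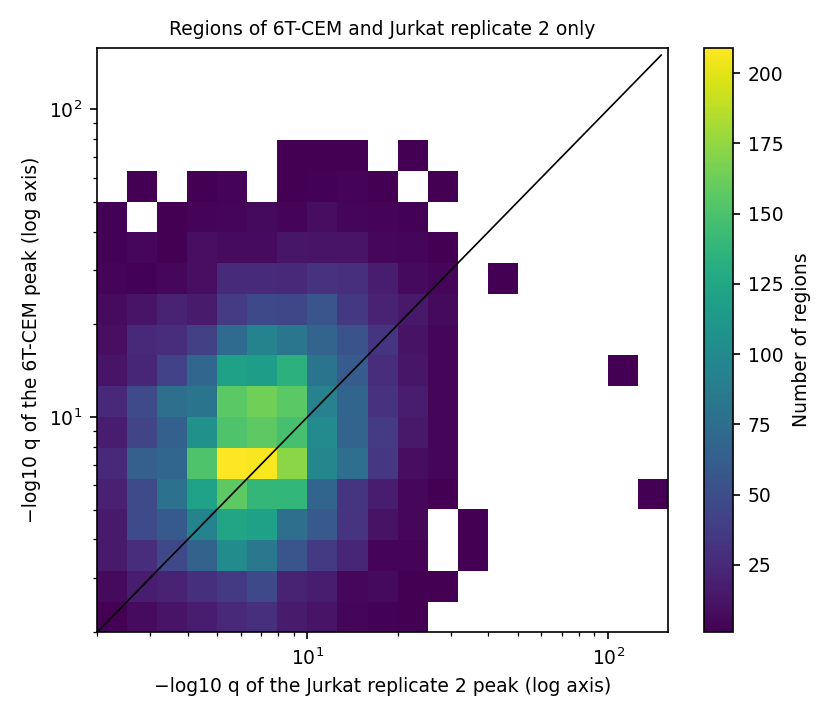
Number of regions of 6T-CEM and Jurkat replicate 2 only (colour) by the −log10 q of the 6T-CEM peak (vertical log axis) and of the Jurkat replicate 2 peak (horizontal log axis), with the line of equal values. The bulk lies near the medians of 8.30 and 6.86, and 61.1% of regions lie above the line, against 58.2% of regions of all libraries.

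The region with the highest weaker −log10 q, 31.5, lay at chr14:105907544-105910160 in the immunoglobulin heavy chain locus, over the diversity segment IGHD1-7. Its fold was 6.66 in 6T-CEM and 10.3 in Jurkat replicate 2. A second region of the same locus, at chr14:105897661-105901600 over IGHD2-15, IGHD1-14 and IGHD6-13, had 5.81 in 6T-CEM and 9.52 in Jurkat replicate 2, and replicate 1 had a peak 4.90 kb from it. The immunoglobulin heavy chain locus encodes antibody chains and rearranges in B cells.

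Other regions among the 10 strongest lay in or near protein-coding genes. GRAP2, which encodes an adaptor of the T-cell receptor pathway, had a region at chr22:39953005-39954633 inside the gene with folds of 12.0 in 6T-CEM and 10.4 in Jurkat replicate 2. A replicate 1 peak lay only 470 bp from it. CISH, a cytokine-induced inhibitor of STAT signalling, had one at chr3:50600070-50603098, 3.39 kb outside the gene, with 6.72 in 6T-CEM and 8.27 in Jurkat replicate 2. ARID3A, a DNA-binding protein gene of lymphoid cells, had the highest folds of the 10, with 14.9 in 6T-CEM and 14.1 in Jurkat replicate 2 at chr19:950872-954694. The remaining regions lay nearest to TBC1D22A, ECE1, AHDC1, DISP3 and TRAPPC6A. Of the 10 regions, 1 lay within 1 kb of a start site, that of ECE1.

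The membership limits were not set by a gap in the values. The widest single peaks within the limit of 4 kb measured 3994 bp near CCR7, a lymphocyte homing receptor gene, 3986 bp in MVB12B and 3961 bp in BRD1. The narrowest just outside measured 4008 bp at MAP4K2, 4012 bp at PRMT7 and 4014 bp at IL16, and 143 regions were left out by this limit. At the overlap limit, a replicate 1 peak began or ended 0, 2 and 3 bp from regions near PTPRC, ARID5B and ALDH1A2, without a shared base. Regions counted as held by all libraries had overlaps of as little as 3, 4 and 14 bp, in GAS7, at 28.2 kb from LMNB1 and in the long non-coding RNA gene CASC15. In all, 47 of the 7058 had a replicate 1 peak within 100 bp, and 28 regions of all libraries rested on an overlap of under 100 bp.

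Replicate 1 peaks were common in the surroundings. One lay within 10 kb of 3476 of the 7058 regions (49.2%, 48.1 to 50.4), against 29.6% of the regions of 6T-CEM only and 39.5% of those of Jurkat replicate 2 only. The median gap to a replicate 1 peak was 10.4 kb for the 7058, 28.6 kb for 6T-CEM only and 16.3 kb for Jurkat replicate 2 only. Of the 7058, 4028 (57.1%) lay within 10 kb of another of them, and the same share was not computed for other classes. Counting between neighbouring replicate 1 peaks, 262 stretches held 5 or more of the regions and together 1794 of them (25.4%).

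The stretch with most regions, 27, ran over 512.0 kb of chromosome 20 from CDH4, a cadherin gene, to TAF4, which encodes a subunit of the general transcription factor TFIID. It held 101 6T-CEM peaks, 47 Jurkat replicate 2 peaks and no replicate 1 peak. The next, at HS6ST1, a heparan sulphate sulfotransferase gene on chromosome 2, held 23 regions, with 60 peaks in 6T-CEM and 48 in Jurkat replicate 2. A stretch over CHCHD6 and the semaphorin receptor gene PLXNA1 on chromosome 3 held 22. TBC1D22A on chromosome 22 had 19, and the stretch from TBCD, a tubulin chaperone gene, to METRNL on chromosome 17 had 14. Folds in these stretches stayed between 2.05 and 10.2 in 6T-CEM and between 2.27 and 9.13 in Jurkat replicate 2.

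Among chromosomes, 22 stood highest. Of regions that were either of the described kind or held by all libraries, 486 of 815 on chromosome 22 were of the described kind (59.6%, 56.2 to 63.0). Chromosome 20 followed with 54.0% (50.3 to 57.7) and chromosome 21 with 51.6% (45.5 to 57.7). The lowest shares were 34.6% on chromosome 13 (28.2 to 41.4), 35.3% on chromosome X (29.4 to 41.5) and 36.7% on chromosome 4 (31.5 to 42.1). Regions of 6T-CEM and Jurkat replicate 1 only ran the other way at the extremes, with the corresponding share lowest on chromosome 22 (6.80%) and highest on chromosome 4 (29.6%). Not every chromosome followed this order. That share was 21.0% on chromosome 21, and it was 29.3% on chromosome 8, which had 47.8% of the described kind. Differences in copy number between the lines were not measured here, and their part in these shares was not tested.

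**Figure D4:**
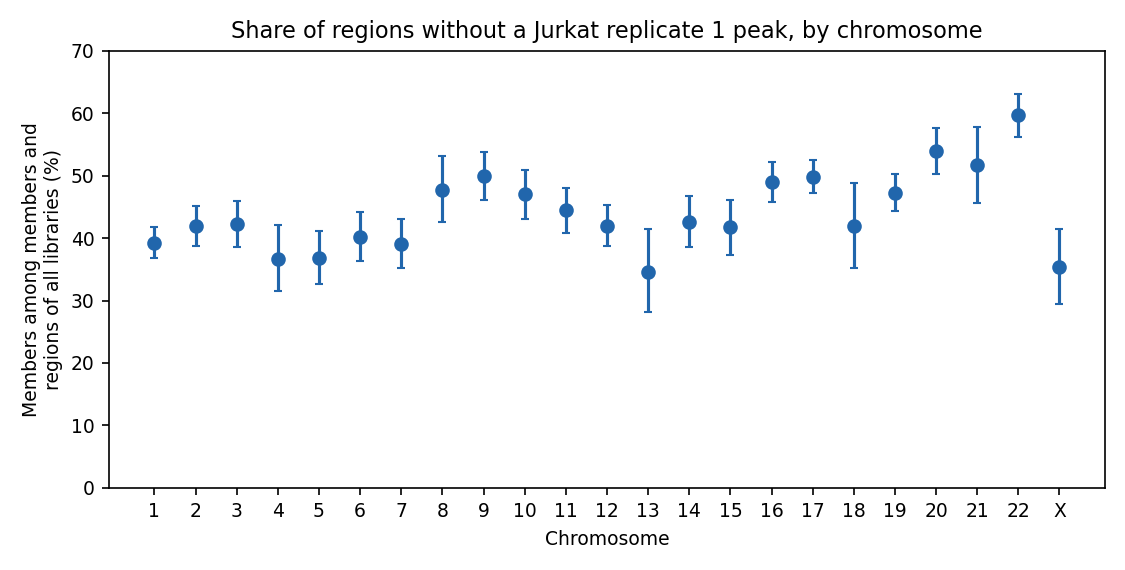
Regions of 6T-CEM and Jurkat replicate 2 only as a percentage of those plus the regions of all libraries (vertical axis, with 95% Clopper-Pearson intervals), by chromosome (horizontal axis). Chromosome 22 is highest with 59.6% and chromosome 13 lowest with 34.6%.

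By gene, 4982 of 19974 protein-coding genes (24.9%) had at least 1 of the regions within 25 kb of the gene body, 527 had 5 or more and 17 had 20 or more. RPTOR, which encodes the scaffold subunit of the growth-regulating mTOR complex 1, had most, with 60 regions, 59 of them overlapping the gene and none within 1 kb of a start site. In all, 142 6T-CEM peaks, 123 Jurkat replicate 2 peaks and 36 Jurkat replicate 1 peaks lay there, and 28 regions were held by all libraries. Median folds over the 60 regions were 5.15 in 6T-CEM and 4.86 in Jurkat replicate 2. LDLRAD4, an inhibitor of TGF-beta signalling, had 32 such regions beside 26 in all libraries. TBC1D22A had 31 beside 4, and CDH4 had 28 beside 4. Regions of 1 library alone were numerous there too. Of 6T-CEM only and Jurkat replicate 2 only, RPTOR had 43 and 16, LDLRAD4 40 and 15, TBC1D22A 32 and 16, and CDH4 70 and 38. High counts at these genes were thus not particular to the described regions.

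Several of the following genes act in blood cells. MSI2, an RNA-binding protein gene of haematopoietic stem cells, had 28 of the regions and 31 held by all libraries. ETV6, an ETS repressor gene of haematopoiesis, had 24 and 36, and CHST11, a chondroitin sulfotransferase gene, 25 and 34. These 3 genes, unlike the others of the 20, had more regions of all libraries than of the described kind. CMIP, an adaptor gene of T-cell signalling, had 27 and 5, CLEC16A, an autoimmunity locus, 27 and 7, and GAS7 25 and 10. BCR, a signalling gene known from the BCR-ABL1 fusion, had 18 beside 8, and CUX1, a homeobox gene, 17 beside 9. ATP2B4, a plasma membrane calcium pump gene, had 18 beside 11. Others were PITPNM2, RAI1, TBCD, GSE1, NOL4L and MPRIP, with 21 to 28 regions. The number of regions per gene went up with gene length, from a mean of 0.41 in genes up to 10 kb through 0.63 in those of 30 to 100 kb to 0.94 in those over 300 kb, so the order of genes by count is in part an order by length. The share of genes with at least 1 such region was 23.2% in genes up to 10 kb and 22.8% in those over 300 kb.

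**Figure D5:**
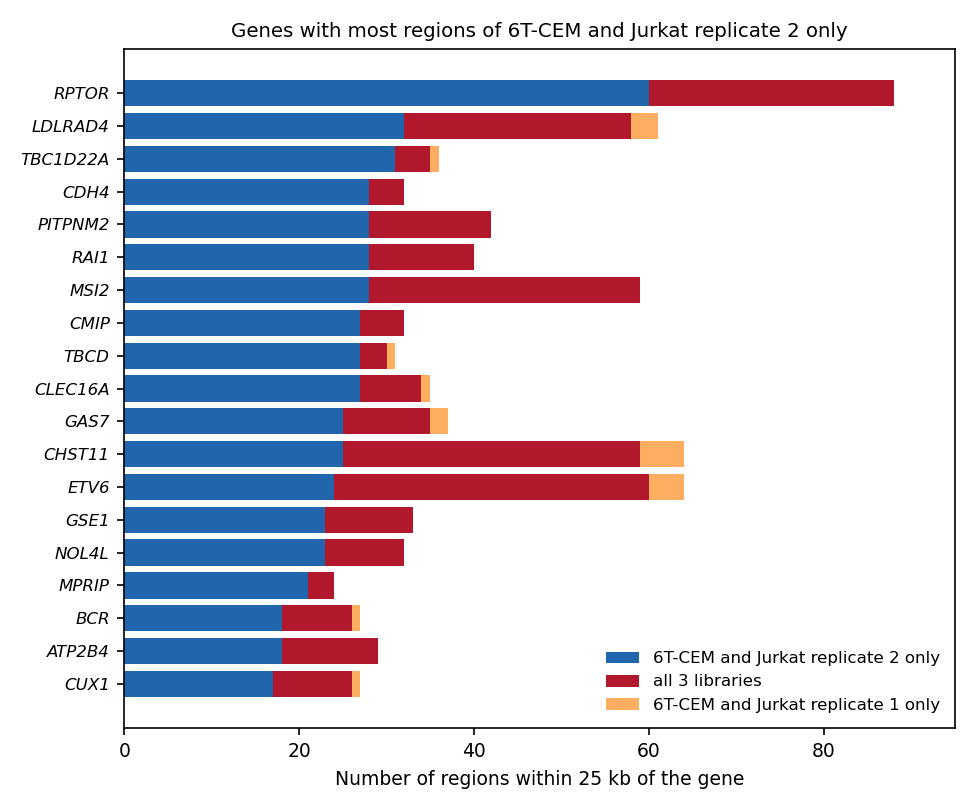
Number of regions (horizontal axis) within 25 kb of the protein-coding genes shown, which are among those with most regions of 6T-CEM and Jurkat replicate 2 only, stacked by the libraries that hold a peak. RPTOR leads with 60 such regions beside 28 of all libraries, and MSI2, ETV6 and CHST11 have more regions of all libraries.

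T-lineage transcription factor genes often had the regions nearby. Of 20, 14 had 1 or more within 25 kb (70%), against 24.9% of all genes. They also exceeded all genes in the other classes: 90.0% had a region of all libraries, against 43.5%, and 50% one of 6T-CEM and Jurkat replicate 1 only, against 12.4%. All 20 had a region of some class within 25 kb. Of the 14432 genes with such a region, 34.5% had one of the described kind. TCF7, a WNT-responsive factor of T-cell commitment, had 7 regions, with 16 peaks in 6T-CEM, 20 peaks in Jurkat replicate 2 and 10 in replicate 1. ETS1 had 7 as well and TCF3, an E protein gene, 6. RUNX1, a core haematopoietic factor gene, had 6, and IKZF1, the Ikaros gene, 5. RUNX3, whose product acts in CD8 T cells, had 3 regions, with 8 peaks in 6T-CEM, 10 peaks in Jurkat replicate 2 and none in replicate 1. The gene of the CD4-lineage factor ZBTB7B had none, with 9 peaks in 6T-CEM, none in Jurkat replicate 2 and 1 in replicate 1.

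T-cell receptor signalling genes came close, with 18 of 27 (66.7%). Of the 27, 81.5% had a region of all libraries and 29.6% one of 6T-CEM and Jurkat replicate 1 only. PRKCQ, the protein kinase C gene of the T-cell synapse, had 13 regions with median folds of 5.89 in 6T-CEM and 4.997 in Jurkat replicate 2. CD247, which encodes the zeta chain, had 11, with 39 peaks in 6T-CEM, 28 peaks in Jurkat replicate 2 and 11 in replicate 1. NFATC2, a calcium-regulated factor gene, had 7, with 33 peaks in 6T-CEM, 13 peaks in Jurkat replicate 2 and 1 in replicate 1. CD3D, CD3E and CD3G had none, although each list had peaks there, from 3 to 10 per gene. T-cell surface genes had 10 of 19 (52.6%). Of the 19, 73.7% had a region of all libraries and 31.6% one of 6T-CEM and Jurkat replicate 1 only. Over all genes these shares were 43.5% and 12.4%. The described regions were most numerous at the adhesion and co-signalling receptor gene CD6 with 9, then ITGAL with 6 and the chemokine receptor gene CCR9 with 5. CD8A, a co-receptor gene, had 3, with 9 peaks in 6T-CEM, 4 peaks in Jurkat replicate 2 and none in replicate 1.

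In the TAL1 circuit 9 of 12 genes had such a region (75%) and 83.3% one of all libraries, yet TAL1, LMO1 and LMO2 had none. TAL1 had 1 peak in 6T-CEM, 7 peaks in Jurkat replicate 2 and 11 in replicate 1. ETV6, ETS1 and TCF3 led this list. ETS1 and TCF3 are also among the T-lineage factors above, so these lists are not separate results. The NOTCH pathway had 10 of 26 (38.5%), and 57.7% had a region of all libraries. Among the 10 were the NOTCH cofactor gene ZMIZ1 with 15 of the described regions and DTX1, a NOTCH-regulated ubiquitin ligase gene, with 5. NOTCH1 had 3, and MYC had none. Cytokine receptor and JAK-STAT genes had 12 of 20 (60.0%), beside 70% with a region of all libraries. IL21R, an interleukin receptor gene, had 6 regions, with 12 peaks in 6T-CEM, 7 peaks in Jurkat replicate 2 and none in replicate 1, and STAT5B had 5 and CISH 3. Regions of 6T-CEM and Jurkat replicate 1 only were near 25% of the TAL1 list and 15.4% of the NOTCH list. The cytokine receptor and JAK-STAT list had 15%, against 12.4% of all genes.

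The mTOR and sterol list had 13 of 18 genes (72.2%), against 24.9% of all genes, and 94.4% had a region of all libraries, against 43.5% of all genes. After RPTOR, SREBF1, which encodes a regulator of lipid synthesis, had 16 regions within 25 kb, 4 of them overlapping the gene. Its window overlaps that of RAI1, so these genes can share regions. The SREBF1 window held 27 peaks in 6T-CEM, 30 peaks in Jurkat replicate 2 and 5 in replicate 1. Histone acetylation and BET genes had 13 of 27 (48.1%), beside 74.1% with a region of all libraries. HDAC7, a class IIa deacetylase gene of thymocytes, had 12 regions, with 23 peaks in 6T-CEM, 25 peaks in Jurkat replicate 2 and 9 in replicate 1. HDAC4 had 9, beside 36 regions held by all libraries. EP300 and CREBBP, which encode p300 and CBP, had none. Regions of 6T-CEM and Jurkat replicate 1 only were near 11.1% of the mTOR and sterol genes, against 12.4% of all genes. For histone acetylation and BET genes the share was 18.5%.

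Other lists lay nearer to or below the share of all genes. Immature thymocyte genes had 3 of 9 (33.3%), namely PTCRA, CD1B and CD1C with 1 each, and CD1B and CD1C share theirs. Housekeeping genes had 2 of 12 (16.7%), among them GAPDH with 3 regions, although 75% of them had a region of all libraries and 50% one of 6T-CEM and Jurkat replicate 1 only. The housekeeping list lay above all genes under other settings, with 33.3% against 22.9% at −log10 q of 5 or more and 16.7% against 10.4% at equal list length. Among genes of other cell types, B-cell genes had 3 of 10 (30%), NK and cytotoxic genes 4 of 13 (30.8%), non-blood genes 3 of 12 (25%), myeloid genes 2 of 11 (18.2%), stem and progenitor genes 1 of 8 (12.5%) and erythroid and megakaryocytic genes 1 of 11 (9.09%). The labelled T-cell type had peaks of all libraries at its CD3 genes, whereas PAX5, EBF1 and MS4A1, which define B cells, had no peak in any list. CD79A and CD79B, which encode the signalling chains of the B-cell receptor, had 6 and 3 of the regions. CD79B had 4 peaks in 6T-CEM, 3 peaks in Jurkat replicate 2 and none in replicate 1, and the myeloid receptor gene CSF1R had 10, 4 and none. TBX21 had 2 of the regions, and NCR3, NKG7, BLK, MPO, EPOR, CD34, KRT5 and APOA1 had 1 each, while PECAM1 had 2. At equal list length 10.4% of all genes had such a region and the T-lineage, T-cell receptor, mTOR and JAK-STAT lists stood at 40%, 51.9%, 33.3% and 30%. The B-cell, NK and non-blood lists, above all genes in the deposited lists, were then below that share, with 1 of 10 (10%), 1 of 13 (7.69%) and 1 of 12 (8.33%). In lists this short, 1 gene can move a list across the share of all genes, so these changes are not read as a result. These lists were chosen with earlier results of these data known, and genes that share a window share regions.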

How the data were processed

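H3K27ac peak lists of 6T-CEM (1 library) and Jurkat (2 libraries), 1 per library, were used as deposited. Alignment and calling tools named in the submitters' processing notes are MACS2 2.2.7 and Bowtie2 2.2.5, with build hg38 and no options. CUT&Tag is the assay of the series description, while sonication appears in the labels' extraction protocol. The authors' lists, without a header, give, for each peak, a fold over the caller's background, −log10 p-values and −log10 q-values, a score that is 10 times the −log10 q as a whole number, and the summit offset. These deposited values were not recalculated, and the lowest −log10 q in any list was 2.00. Sequencing depth is unknown.

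Peaks on chromosomes 1 to 22 and X were joined when they shared 1 base, and a region's value in a library is that of its peak of highest −log10 q. Genes (19974 protein-coding), 22132 coding promoters and their start sites, and microRNAs came from RefSeq tables of GRCh38.p14, and hg38 is another name of GRCh38. The promoter table lists only some start sites of a gene. No genome sequence was used here, so sequence was read in promoters and not at summits, which departs from the design, and the promoters of the strongest regions are printed in place of the 10 strongest regions. A promoter under several classes was assigned to the first of 6T-CEM and Jurkat replicate 2 only, all libraries, 6T-CEM and replicate 1 only, both Jurkat, and single libraries. The 143 regions left out by width came last.

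Named genes were the 3 of each list and the 20 of all genes with most regions (1 where windows overlapped), the genes nearest to the 10 strongest regions, those of the 5 stretches with most regions, and those at the width limit. Results for some of these genes are not reported here. Further genes of the lists, and regions at the overlap limit, were named after their values were seen. The members and the 16 gene lists (255 entries) were chosen with earlier results of these data known. No test was run: 6T-CEM has 1 library and the peak calls chose the regions. Functions for joining and distances were tested on simulated data. Alternatives were −log10 q of 5 or more, equal list length, an overlap of 50% of the shorter peak, a replicate 1 peak within 1 kb counted, no width limit, each library left out, and other windows. Leaving out 6T-CEM was added after seeing the data. Python 3.11.15, NumPy, pandas, SciPy and matplotlib were used.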

Additional observations from a re-analysis of the deposited data

Results flagged for a closer look

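Outside the chromosomes analysed, 221 regions on alternate and unplaced contigs, where 1637 regions were formed, met the same rule of peaks in 6T-CEM and Jurkat replicate 2 and none in replicate 1. No comparison above uses these peaks, and 232 regions on these contigs held peaks of all libraries. On the chromosomes analysed 7058 of 49528 regions met the rule (14.3%), a like share, so the count on contigs is not read as a result. No control level was available for them.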

How the results depend on the processing

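The count of 7058 regions stayed within 1.5 times its value at −log10 q of 5 or more (5496), under 50% overlap (6921), with replicate 1 peaks within 1 kb counted (6392) and without the width limit (7201). It was 1803 at equal list length and 15395 to 23704 with a library left out, where fewer conditions are asked for. The share near a gene end (11.2%) was 15.0% at −log10 q of 5 or more, 13.2% at equal list length, 9.30% to 32.5% with a library left out, 17.8% within 2.5 kb and 6.13% for start sites alone. The share with a replicate 1 peak within 10 kb (49.2%) was 42.4% at −log10 q of 5 or more, 54.0% at equal list length, 51.1% under 50% overlap and 81.3% within 50 kb. The share of genes with a region (24.9%) was 18.7% within 10 kb, 42.8% within 100 kb, 10.4% at equal list length and 22.9% at −log10 q of 5 or more. Of the 16 gene lists, 12 lay above the share of all genes, and 10 to 13 did under these settings. GC content at summits with other windows was not run, since no genome sequence was used here. No paired analysis was possible because the result comes from no test and the IgG samples were not used here. Depth is unknown, so a missing replicate 1 peak does not show that acetylation was absent.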

Other observations

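The highest single values among the regions lay far from the medians, and were looked up after the values were seen. In 6T-CEM, the highest fold, 28.6, was inside SPOCK1, a proteoglycan gene, at chr5:137461603-137462782, where Jurkat replicate 2 had 4.70. The next by −log10 q lay 60.9 kb from HHEX, a homeobox gene of haematopoietic progenitors, at chr10:92756576-92758364, with a fold of 26.1 in 6T-CEM and 5.27 in Jurkat replicate 2. The highest values in Jurkat replicate 2 lay at the tips of chromosomes. The region at chr5:9903-11797 had a fold of 2.54 in 6T-CEM and 21.6 in Jurkat replicate 2, and that at chr12:133264856-133265401 had 4.76 in 6T-CEM and 20.6 in Jurkat replicate 2. Each is the first or last region of its chromosome. Of the 46 regions that are first or last on a chromosome, 16 had a 6T-CEM peak, 37 a Jurkat replicate 2 peak and 7 a Jurkat replicate 1 peak. The whole lists held 35154, 32097 and 16159 peaks in the same order. The share of all union regions with a peak of each list was not computed, so these counts are not read as a result. Of the same 46, 6 were among the 7058, where 14.3% of all union regions were.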
